A study of Saccharomyces cerevisiae with 8 samples.

Results

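Budding yeast, Saccharomyces cerevisiae, was profiled on 8 arrays for the transcripts of 40 genes that carry sugar through glycolysis to ethanol and acetate, through the pentose phosphate pathway, and back up through gluconeogenesis. The 40 genes were chosen by name, but with earlier results of these data known. Of them, 39 had a probe set assigned to them among the 5449 yeast genes of the table. TDH2, an isoenzyme gene of glyceraldehyde-3-phosphate dehydrogenase, had none and was not analysed here. Of the 8 arrays, 4 came from cultures with an empty plasmid, which the labels call pRSGPD426, and 4 from cultures with pRS416TEF-Kir2.1-HA, a plasmid for the potassium channel Kir2.1. Cultures of both sets grew at 26 °C under plasmid selection until mid-exponential phase, the labels name no host strain, and total RNA was labelled from its 3′ end. The comparison asks how the host responds to a foreign membrane protein. The groups differ in the plasmid as well as in the channel (GPD and TEF are names of yeast promoters), and only the 4 control arrays carry a mark of re-analysis in their labels, so effects of the channel, the plasmid and that handling cannot be told apart.

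Glycolysis splits glucose into pyruvate and yields ATP, and yeast given ample glucose sends most of that pyruvate on to ethanol by fermentation even where oxygen is present. The pentose phosphate pathway branches off at glucose-6-phosphate, makes NADPH in its oxidative arm and rearranges sugars for nucleotide synthesis in its non-oxidative arm. Many steps are run by isoenzymes of which 1 is made at very high levels on glucose, while its relative is made when glucose runs short or under stress. Gluconeogenic enzymes and those that turn ethanol back into acetyl-CoA are kept low while glucose lasts.

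The deposited values are standardized scores of a linear intensity, from which a log2 scale was rebuilt, and every level below is a log2 level above or below that array's median gene. Differences are log2 values too, given as Kir2.1 minus vector control with their standard error (SE), and p-values come from limma, adjusted by the Benjamini-Hochberg method over all 5449 genes. Values of single arrays are listed in the order of replicates 1 to 4 of each group. A level depends on the gene's probe set as well as on its RNA, so an order of genes by level is an order of probe set brightness only. Between 84.9% and 88.6% of yeast genes lay above the background on an array, taken as the 95th percentile of probe sets made for another yeast, S. pombe. On this measure 37 of the 39 members lay above the background on all 8 arrays, TKL2 on 4 and FBP1 on 0. Kir2.1 replicates 1 and 3, with vector control replicate 1, stood apart from the other 5 arrays in a list of 14 iron regulon genes. Their summed level was 6.66, 6.76 and 6.34 there and lay between 3.48 and 4.23 on the others. Members that follow these 3 arrays are given with and without them near the end. A level of the whole culture cannot tell apart more cells that express a gene from more RNA in each cell.

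None of the 39 members passed the test between the groups. The count was 0 at an adjusted p under 0.05, against 0% of all genes, and the smallest adjusted p, 0.551, was shared by 13 members. At an unadjusted p under 0.05, 14 members (35.9%) were higher on average with Kir2.1, against 6.37% of all genes, and 0 members were lower, against 1.98%. In 17 members (43.6%) the lowest Kir2.1 array exceeded the highest control array, against 5.05% of all genes, and in 0 members the order was the opposite one, against 1.54%. The Kir2.1 mean exceeded the control mean for 36 of 39 members (92.3%), against 58.7% of all genes, and the median difference was 0.18 over the members and 0.029 over all genes. These shares describe a set of genes of which 23 lay in the brightest decile of all genes. In that decile, 24.6% of genes had Kir2.1 values above all control values, 88.1% had a higher mean, and the median difference was 0.12. With limma's array weights 19 of 39 members passed, against 31.8% of all genes, and when Kir2.1 replicate 2 and vector control replicate 1 were both left out ALD4 and PFK26 passed (2 of 39 members), against 9.32% of all genes. The interval of most members was narrow. Leaving out FBP1, which lay within the background, the 95% interval of 34 of 38 members lay within 2-fold in either direction, the exceptions being PDC5, PDC6, ALD4 and TKL2, and that of 31 lay within 1.5-fold.

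**Figure D1:**
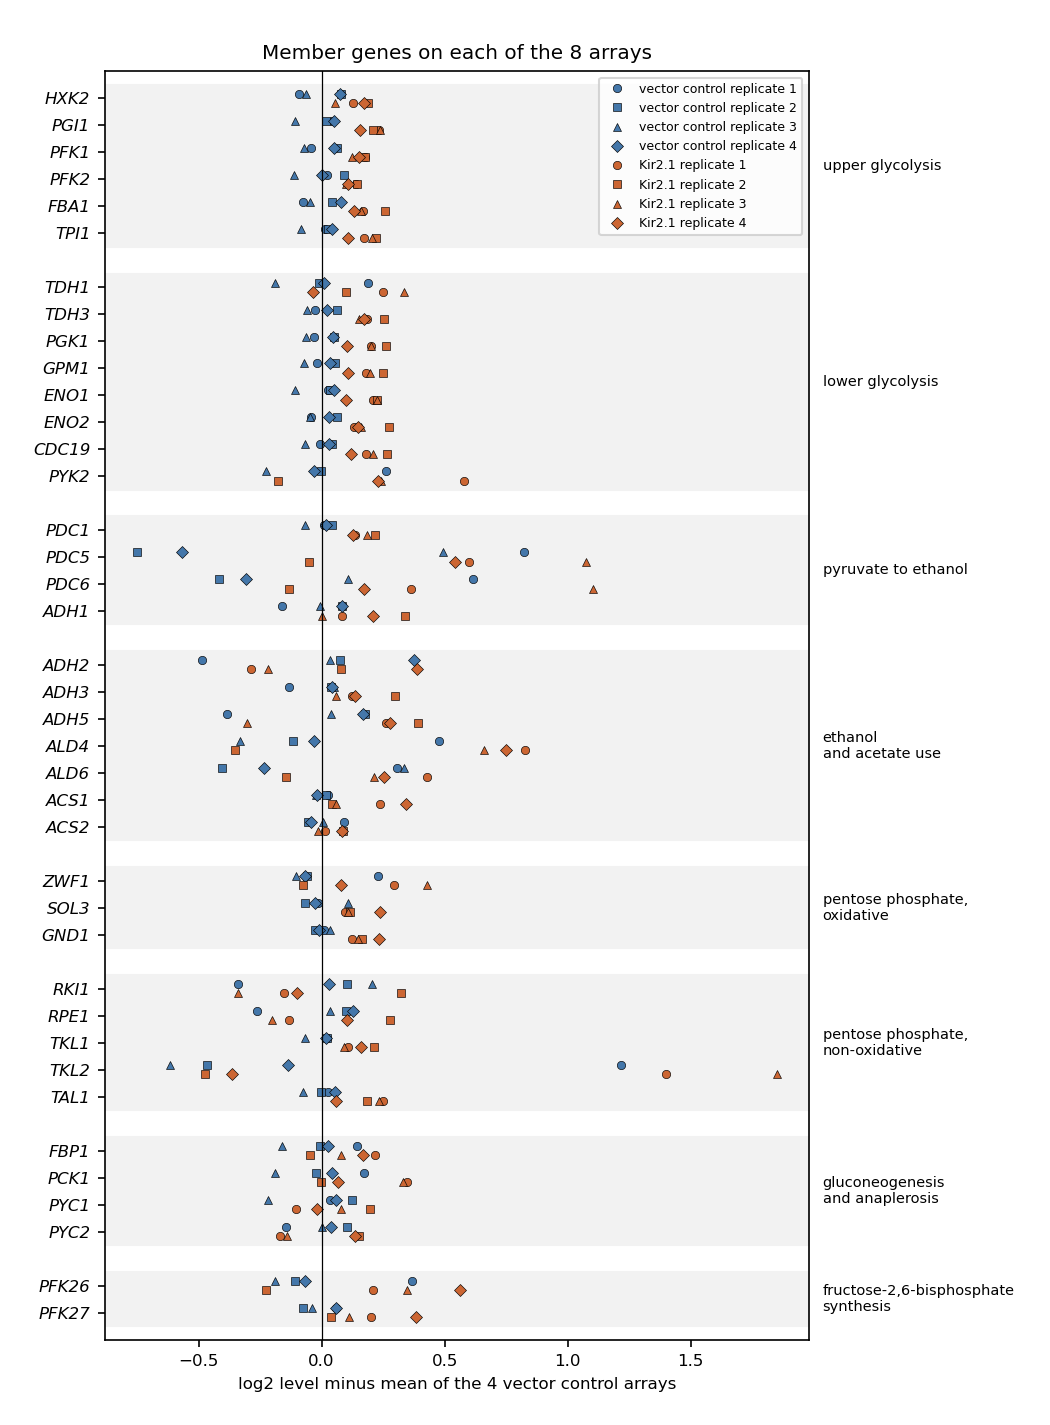
Each row is 1 of the 39 member genes, grouped by pathway step, and each point is 1 array; the horizontal axis is the log2 level minus the mean of the 4 vector control arrays. Most genes of upper and lower glycolysis have their Kir2.1 points (orange) in a tight band just right of the control points (blue), while PDC5, PDC6, ALD4 and TKL2 are spread widely within both groups.

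In upper glycolysis, which turns glucose into triose phosphates, the Kir2.1 mean of all 6 members was the higher one, by 0.12 to 0.21, and in 5 of them the groups did not overlap. All 6 lay in the brightest decile, where 88.1% of genes had the higher mean with Kir2.1 and 24.6% were separated that way (5.05% of all genes). PGI1 (YBR196C), phosphoglucose isomerase, stood at 3.90, 3.88, 3.75 and 3.91 in the controls and 4.09, 4.07, 4.10 and 4.02 in the Kir2.1 arrays. The difference was 0.21 (SE 0.057, limma adjusted p = 0.551), or 1.16-fold (95% interval 1.06 to 1.26). Its lowest Kir2.1 array lay above its highest control array, and after quantile normalization, which gives each array the same set of values, the difference was 0.068. HXK2 (YGL253W), the main hexokinase on glucose and also a regulator of glucose repression, was the member of this step whose groups overlapped, at 3.59, 3.76, 3.61 and 3.75 in the controls and 3.80, 3.86, 3.73 and 3.85 in the Kir2.1 arrays. Kir2.1 replicate 3 lay below vector control replicates 2 and 4 there, and the difference was 0.14 (SE 0.065).

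Phosphofructokinase, the main control point of glycolysis, is built from both PFK1 and PFK2 products. PFK1 (YGR240C) stood at 3.44, 3.55, 3.42 and 3.54 in the controls and 3.66, 3.66, 3.61 and 3.64 in the Kir2.1 arrays. PFK2 (YMR205C) stood at 3.80, 3.87, 3.66 and 3.78 in the controls and 3.91, 3.92, 3.87 and 3.88 in the Kir2.1 arrays. Both subunit genes were separated between the groups, PFK1 by 0.16 (SE 0.055) and PFK2 by 0.12 (SE 0.059), and vector control replicate 3 was the lowest array for each. FBA1 (YKL060C), the aldolase, stood at 4.17, 4.29, 4.20 and 4.33 in the controls and 4.42, 4.50, 4.41 and 4.38 in the Kir2.1 arrays. TPI1 (YDR050C), triose phosphate isomerase, stood at 4.39, 4.41, 4.30 and 4.42 in the controls and 4.55, 4.60, 4.59 and 4.49 in the Kir2.1 arrays. Their differences of 0.18 (SE 0.060) and 0.18 (SE 0.055) came with Kir2.1 replicate 2 as the highest array of each gene, and after quantile normalization they were 0.0083 and -0.012.

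In lower glycolysis, from glyceraldehyde-3-phosphate to pyruvate, the Kir2.1 mean was the higher one in all 8 measured members, by 0.16 to 0.22, and 6 were separated between the groups. Of these 8, 7 lay in the brightest decile, with its shares of 88.1% and 24.6%. TDH3 (YGR192C), the main glyceraldehyde-3-phosphate dehydrogenase gene, had the highest score of all probe sets on every array, 8.74, 8.87, 8.49 and 8.59 in the controls and 9.22, 9.13, 8.99 and 8.98 in the Kir2.1 arrays in units of the array's standard deviation. Its log2 level was 4.56, 4.65, 4.53 and 4.61 in the controls and 4.77, 4.84, 4.73 and 4.76 in the Kir2.1 arrays, a difference of 0.19 (SE 0.054, limma adjusted p = 0.551). Every Kir2.1 array exceeded every control on both scales. Since the highest value of every array becomes the same under quantile normalization, the difference of TDH3 is 0 there by construction. TDH1 (YJL052W), an isoenzyme gene known for expression in slow growth and under stress, stood at 4.32, 4.12, 3.94 and 4.14 in the controls and 4.38, 4.23, 4.47 and 4.10 in the Kir2.1 arrays. Its groups overlapped, with vector control replicate 1 higher than Kir2.1 replicates 2 and 4 (difference 0.16, SE 0.11).

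PGK1 (YCR012W), phosphoglycerate kinase, the first step of glycolysis that yields ATP, stood at 4.40, 4.48, 4.37 and 4.48 in the controls and 4.64, 4.70, 4.64 and 4.54 in the Kir2.1 arrays. GPM1 (YKL152C), phosphoglycerate mutase, stood at 4.43, 4.51, 4.38 and 4.49 in the controls and 4.63, 4.70, 4.65 and 4.56 in the Kir2.1 arrays. Both were separated, by 0.19 (SE 0.058) and 0.18 (SE 0.057), with the arrays in nearly the same order, highest in Kir2.1 replicate 2 and lowest in vector control replicate 3. The enolase gene ENO1 (YGR254W) stood at 4.31, 4.32, 4.18 and 4.34 in the controls and 4.50, 4.51, 4.51 and 4.39 in the Kir2.1 arrays. Its relative ENO2 (YHR174W), the enolase most used on glucose, stood at 4.30, 4.41, 4.30 and 4.38 in the controls and 4.48, 4.62, 4.50 and 4.49 in the Kir2.1 arrays. The differences of 0.19 (SE 0.061) and 0.18 (SE 0.058) were close, and the lowest Kir2.1 array was replicate 4 for ENO1 and replicate 1 for ENO2. CDC19 (YAL038W), the main pyruvate kinase, stood at 4.44, 4.49, 4.38 and 4.48 in the controls and 4.63, 4.71, 4.66 and 4.57 in the Kir2.1 arrays, and PYK2 (YOR347C), a pyruvate kinase that is repressed by glucose, at 0.38, 0.12, -0.11 and 0.091 in the controls and 0.70, -0.054, 0.36 and 0.35 in the Kir2.1 arrays. CDC19 was separated, by 0.19 (SE 0.056). PYK2 had a similar difference, 0.22, but an SE of 0.16, because Kir2.1 replicate 1 was high and Kir2.1 replicate 2 lay below 3 of the controls. Without the one it was 0.097 and without the other 0.35.

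**Figure D2:**
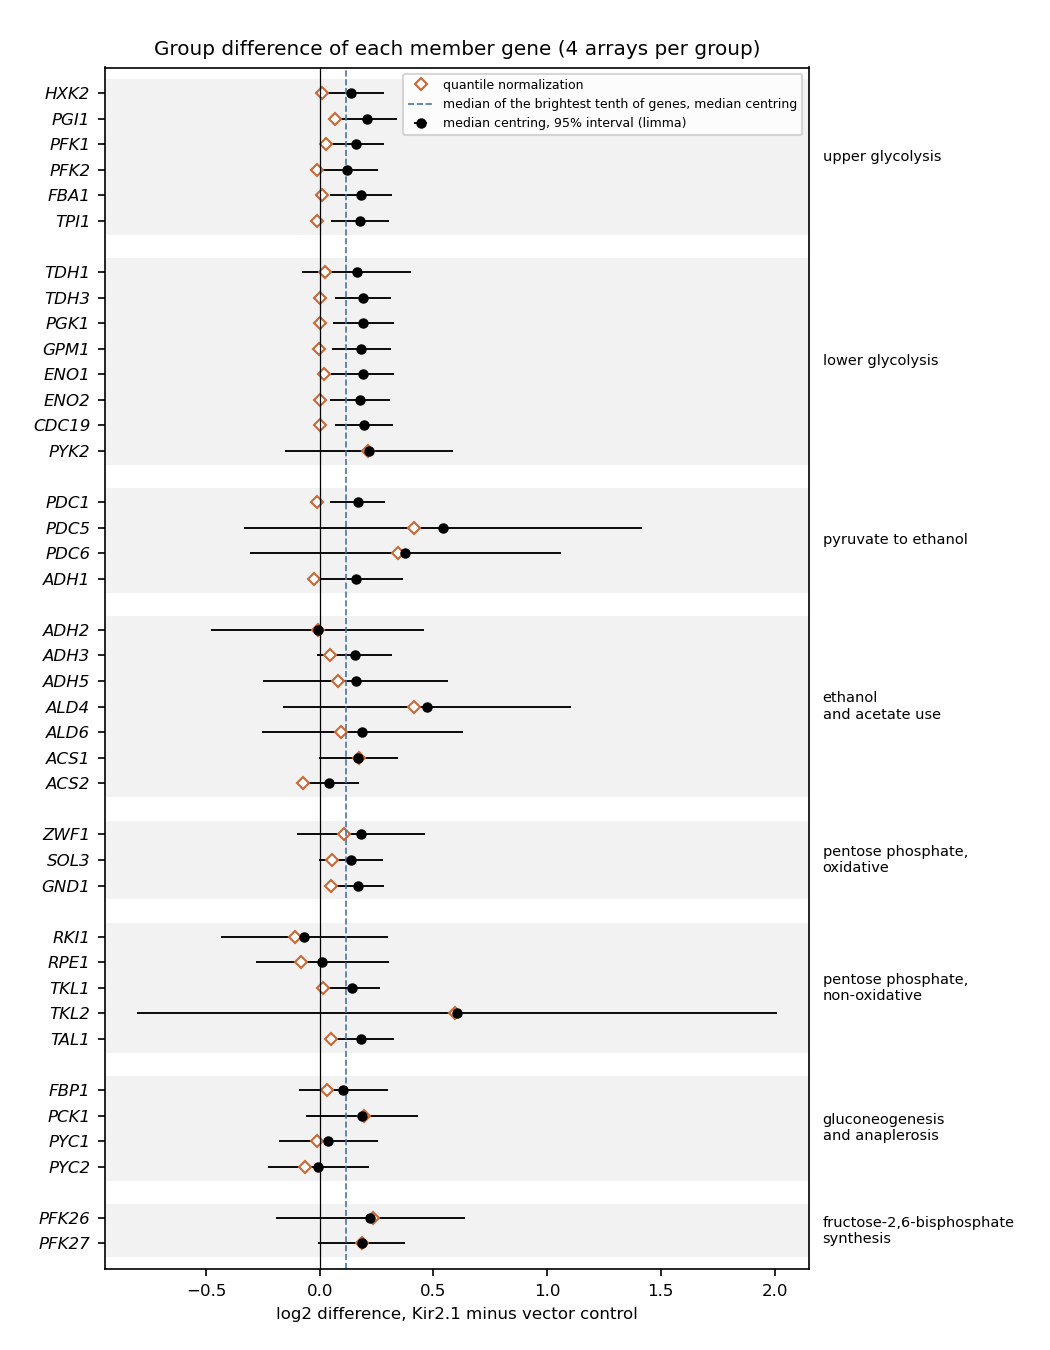
Filled points give the log2 difference, Kir2.1 minus vector control, of each member with its 95% interval from limma (4 arrays per group), open diamonds the difference after quantile normalization, and the dashed line the median difference of the brightest decile of all genes, 0.12. Glycolytic members sit between 0.12 and 0.22, mostly with narrow intervals, and move to between -0.014 and 0.068 after quantile normalization, except for PYK2, which stays at 0.21.

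The 17 members whose groups did not overlap had nearly equal differences, from 0.12 to 0.21 (1.09-fold to 1.16-fold), and 16 of them lay in the brightest decile of genes. Their standard deviation (SD) within a group had a median of 0.058 over these genes, against 0.20 over the other 22 members. At differences of this size, groups without overlap need a small SD, so this contrast follows largely from how the 17 were picked. With median centring, bright genes in general stood higher with Kir2.1. After quantile normalization the median difference of the brightest decile was -0.011, and 231 of its 545 genes had the higher mean with Kir2.1. That scaling gives each array the same set of values, so the decile as a whole can hardly differ between the groups there. It is therefore no check of the shift of bright genes. With median centring, the 522 genes of that decile that were not members had a median difference of 0.11, and 22.6% of them had Kir2.1 values above all controls, against 69.6% of the 23 members in that decile. Of the separated members, TDH3, CDC19, GPM1, PGK1, TPI1, PDC1 and ENO2 ranked 1, 4, 5, 6, 7, 8 and 10 in brightness among all genes, and ADH3 371. The decile holds 545 genes, so these shares are not matched for brightness. After quantile normalization the median difference was 0.024 over the 39 members, 0.0083 over these 23 and 0.14 over the 16 outside the brightest decile. ACS1 was then the 1 member in which every Kir2.1 array exceeded every control, where 1.78% of all genes did so. Before centring, the median gene itself lay lower in the Kir2.1 arrays (mean difference of the array medians -0.13), and without centring the median member difference was 0.047. The deposited scores had already been scaled to a unit SD on every array, to which the brightest genes contribute most. The values without centring are therefore no independent check of the shift of bright genes either. The part of brightness and scaling in the glycolytic differences was not tested.

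**Figure D3:**
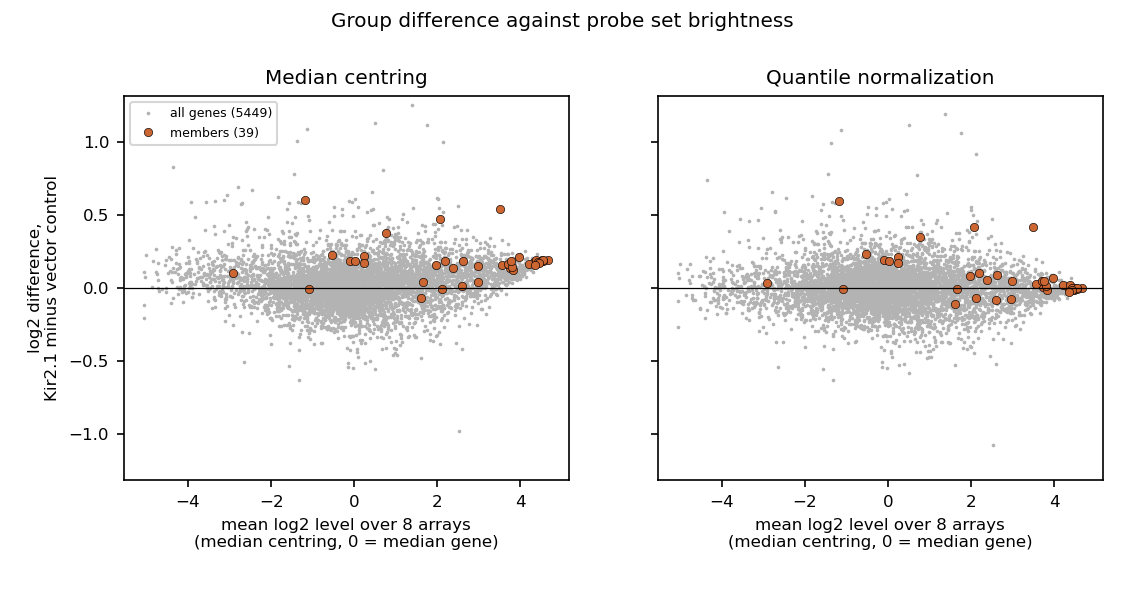
Each grey point is 1 of 5449 genes and each orange point 1 of the 39 members; the horizontal axis is the mean log2 level over the 8 arrays relative to the median gene, and the vertical axis the log2 difference, Kir2.1 minus vector control. With median centring (left) the cloud of bright genes, members included, lies above 0, and after quantile normalization (right) the bright members lie near 0 except for PDC5, and some dimmer ones, such as PDC6 and TKL2, stay above it.

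Of the step from pyruvate to ethanol, PDC1 and ADH1 are the genes used most on glucose. PDC1 (YLR044C), pyruvate decarboxylase, stood at 4.37, 4.40, 4.29 and 4.38 in the controls and 4.49, 4.58, 4.54 and 4.49 in the Kir2.1 arrays. Its groups did not overlap and the difference was 0.17 (SE 0.053), or -0.012 after quantile normalization. ADH1 (YOL086C), the alcohol dehydrogenase that makes ethanol, stood at 4.12, 4.36, 4.27 and 4.36 in the controls and 4.36, 4.62, 4.28 and 4.49 in the Kir2.1 arrays. Its groups overlapped, because Kir2.1 replicate 3 lay within the range of the controls and Kir2.1 replicate 1 level with the highest of them, and the difference was 0.16 (SE 0.091).

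The other pyruvate decarboxylase genes were among the most variable members, and their variation lay within the groups more than between them. PDC5 (YLR134W), known to be turned on when PDC1 is lost or thiamine is short, stood at 4.06, 2.48, 3.73 and 2.66 in the controls and 3.83, 3.18, 4.30 and 3.78 in the Kir2.1 arrays. Vector control replicates 1 and 3 lay within the range of the Kir2.1 arrays, and replicates 2 and 4 lay below it, more than 1 log2 unit under the other controls. The difference of 0.54 had an SE of 0.38 (limma adjusted p = 0.711), and it ran from 0.29 without vector control replicate 2 to 0.82 without vector control replicate 1. PDC6 (YGR087C), a minor form low in sulfur-containing amino acids and known from growth on poor carbon or sulfur sources, stood at 1.20, 0.17, 0.69 and 0.28 in the controls and 0.95, 0.45, 1.69 and 0.76 in the Kir2.1 arrays. All 8 arrays stood in the same order as for PDC5, from Kir2.1 replicate 3 as the highest to vector control replicate 2 as the lowest, and its difference was 0.38 (SE 0.30), or 0.14 without Kir2.1 replicate 3 and 0.58 without vector control replicate 1.

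Among the genes that use ethanol and acetate, ALD4 varied most and ACS1 was 1 of 2 that separated the groups. These were 2 of 7 members (28.6%, against 5.05% of all genes). The other, ADH3, lay in the brightest decile, where 24.6% of genes were separated that way. ADH2 (YMR303C), the glucose-repressed alcohol dehydrogenase that oxidizes ethanol, stood at -1.57, -1.01, -1.04 and -0.70 in the controls and -1.37, -1.00, -1.30 and -0.69 in the Kir2.1 arrays. The groups covered the same range (difference -0.0096, SE 0.20), and its 3 lowest arrays were Kir2.1 replicates 1 and 3 and vector control replicate 1. ADH3 (YMR083W), the mitochondrial alcohol dehydrogenase, stood at 2.78, 2.95, 2.96 and 2.95 in the controls and 3.03, 3.21, 2.97 and 3.05 in the Kir2.1 arrays, and was separated by 0.15 (SE 0.073), although Kir2.1 replicate 3 exceeded the highest control by less than 0.01. ADH5 (YBR145W), a minor alcohol dehydrogenase, stood at 1.52, 2.08, 1.94 and 2.07 in the controls and 2.17, 2.30, 1.60 and 2.18 in the Kir2.1 arrays. It was low in vector control replicate 1 and Kir2.1 replicate 3, and the groups overlapped (difference 0.16, SE 0.18).

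ALD4 (YOR374W), the mitochondrial aldehyde dehydrogenase that is repressed by glucose, stood at 2.32, 1.72, 1.51 and 1.81 in the controls and 2.66, 1.49, 2.50 and 2.59 in the Kir2.1 arrays. Kir2.1 replicates 1, 3 and 4 lay above all controls and Kir2.1 replicate 2 below all of them, which gave a difference of 0.47 with an SE of 0.28. Without Kir2.1 replicate 2 the difference was 0.75 (limma adjusted p = 0.189). ALD6 (YPL061W), the cytosolic aldehyde dehydrogenase that makes most acetate and also NADPH, stood at 2.83, 2.12, 2.86 and 2.29 in the controls and 2.96, 2.38, 2.74 and 2.78 in the Kir2.1 arrays. As for PDC5, vector control replicates 2 and 4 and Kir2.1 replicate 2 were the low arrays (difference 0.19, SE 0.19). ACS1 (YAL054C), the acetyl-CoA synthetase repressed by glucose, stood at 0.18, 0.17, 0.13 and 0.14 in the controls and 0.39, 0.20, 0.22 and 0.50 in the Kir2.1 arrays. The 4 controls lay within 0.05 of each other, all Kir2.1 arrays lay above them, and the difference of 0.17 (SE 0.077, limma adjusted p = 0.609) was 0.17 after quantile normalization. ACS2 (YLR153C), the form used on glucose, stood at 3.04, 2.90, 2.96 and 2.91 in the controls and 2.97, 3.04, 2.94 and 3.04 in the Kir2.1 arrays, with overlapping groups and the smallest range of all members (difference 0.042, SE 0.058).

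In the oxidative arm of the pentose phosphate pathway, GND1 was the 1 of 3 members whose groups did not overlap (33.3%, against 5.05% of all genes). It lay in the brightest decile, where 24.6% of genes were separated that way. ZWF1 (YNL241C), glucose-6-phosphate dehydrogenase, which commits glucose to the pathway, was high in Kir2.1 replicates 1 and 3 and vector control replicate 1, at 2.33, 2.04, 1.99 and 2.03 in the controls and 2.39, 2.02, 2.53 and 2.18 in the Kir2.1 arrays (difference 0.18, SE 0.12). SOL3 (YHR163W), the lactonase of the next step, stood at 2.30, 2.25, 2.42 and 2.29 in the controls and 2.41, 2.43, 2.42 and 2.55 in the Kir2.1 arrays, with vector control replicate 3 inside the Kir2.1 range (difference 0.14, SE 0.062). GND1 (YHR183W), the main 6-phosphogluconate dehydrogenase, stood at 3.64, 3.60, 3.66 and 3.62 in the controls and 3.75, 3.79, 3.78 and 3.86 in the Kir2.1 arrays. Every Kir2.1 array exceeded every control, by 0.17 on average (SE 0.051), and by 0.051 after quantile normalization.

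In the non-oxidative arm the main enzymes and their partners behaved differently between arrays. TKL1 (YPR074C), the main transketolase, stood at 3.76, 3.76, 3.67 and 3.76 in the controls and 3.85, 3.95, 3.83 and 3.90 in the Kir2.1 arrays. TAL1 (YLR354C), transaldolase, stood at 3.70, 3.67, 3.60 and 3.73 in the controls and 3.93, 3.86, 3.91 and 3.73 in the Kir2.1 arrays. Both were separated between the groups, by 0.14 (SE 0.054) and 0.18 (SE 0.063), although the highest control of TAL1 lay less than 0.01 below the lowest Kir2.1 array. They were 2 of 5 members of this arm (40%, against 5.05% of all genes). Both lay in the brightest decile, where 24.6% of genes were separated that way. RKI1 (YOR095C), ribose-5-phosphate isomerase, stood at 1.30, 1.75, 1.85 and 1.67 in the controls and 1.49, 1.97, 1.31 and 1.54 in the Kir2.1 arrays. RPE1 (YJL121C), the epimerase that feeds the same reactions, stood at 2.34, 2.70, 2.63 and 2.73 in the controls and 2.47, 2.88, 2.40 and 2.70 in the Kir2.1 arrays. For both, the 3 lowest arrays were Kir2.1 replicates 1 and 3 and vector control replicate 1, and the differences of -0.067 (SE 0.16) and 0.012 (SE 0.13) were smaller than their errors. TKL2 (YBR117C), a transketolase gene known from stress and poor carbon sources, stood at -0.27, -1.96, -2.11 and -1.63 in the controls and -0.092, -1.96, 0.36 and -1.86 in the Kir2.1 arrays. The first of the controls and Kir2.1 replicates 1 and 3 lay more than 1 unit above the other 5 arrays, and TKL2 was above the background on only 1 further array. Its difference of 0.60 (SE 0.62) was -0.013 without these 3 arrays, and over single omissions it ran from 0.19 (without Kir2.1 replicate 3) to 1.01 (without vector control replicate 1).

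Gluconeogenesis and the reactions that refill the citric acid cycle showed no separated member (0 of 4). Of all genes, 5.05% were separated with Kir2.1 higher and 1.54% with Kir2.1 lower. FBP1 (YLR377C), fructose-1,6-bisphosphatase, which opposes phosphofructokinase, lay within the background on all 8 arrays, between -3.13 and -2.75, so that no fold is given for it. PCK1 (YKR097W), phosphoenolpyruvate carboxykinase, lay between -0.38 and 0.15, with overlapping groups (difference 0.19, SE 0.11). The pyruvate carboxylase gene PYC1 (YGL062W) stood at 1.68, 1.77, 1.43 and 1.70 in the controls and 1.54, 1.84, 1.72 and 1.62 in the Kir2.1 arrays, and PYC2 (YBR218C) at 1.97, 2.22, 2.12 and 2.16 in the controls and 1.95, 2.27, 1.98 and 2.25 in the Kir2.1 arrays. Neither differed beyond its error (differences 0.038, SE 0.095, and -0.0058, SE 0.097). PFK26 and PFK27 make fructose-2,6-bisphosphate, the signal that activates phosphofructokinase and holds back fructose-1,6-bisphosphatase. PFK26 (YIL107C) stood at -0.28, -0.76, -0.84 and -0.72 in the controls and -0.44, -0.88, -0.30 and -0.089 in the Kir2.1 arrays, and PFK27 (YOL136C) at -0.0043, -0.14, -0.10 and -0.0044 in the controls and 0.14, -0.024, 0.048 and 0.32 in the Kir2.1 arrays. Kir2.1 replicate 4 was the highest array of both, Kir2.1 replicate 2 lay below all controls for PFK26 and among them for PFK27, and the differences were 0.22 (SE 0.18) and 0.18 (SE 0.083), with 0.23 and 0.19 after quantile normalization.

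Isoenzymes of the same step were then set against each other within each array, which asks whether both changed equally. The pair of PFK2 and PFK1 holds subunits of the same enzyme instead. In 14 measured pairs, the log2 ratio of 1 gene to its relative was compared between the groups by a two-sided exact permutation test over the 8 arrays, whose smallest possible p is 0.0286. No pair was separated between the groups, the smallest exact p was 0.171 (ACS1 against ACS2), and none passed after Benjamini-Hochberg adjustment over the 14 pairs (smallest adjusted exact p = 0.985, permutation). At least 9 pairs would have to reach the smallest possible p for any to pass, so that this count says little. After quantile normalization the ratio of ACS1 to ACS2 was the 1 separated between the groups (difference 0.24, exact permutation p = 0.0286, adjusted 0.4). In 3 pairs the ratio varied little. ENO1 against ENO2 differed by 0.011 (SE 0.045), PFK2 against PFK1 by -0.036 (SE 0.029) and ADH3 against ADH1 by -0.0049 (SE 0.040). Every other pair had a larger error than these 3, whatever the size of its mean difference. PDC5 against PDC1 differed by 0.37 (SE 0.47), TKL2 against TKL1 by 0.46 (SE 0.74), ALD4 against ALD6 by 0.28 (SE 0.28), PDC6 against PDC1 by 0.21 (SE 0.36) and ACS1 against ACS2 by 0.13 (SE 0.076). For ADH2 against ADH1 the difference was -0.17 (SE 0.18), for PYK2 against CDC19 0.024 (SE 0.20) and for TDH1 against TDH3 -0.027 (SE 0.12). The remaining pairs, ADH5 against ADH1, PYC1 against PYC2 and PFK27 against PFK26, differed by -0.00063 (SE 0.13), 0.043 (SE 0.11) and -0.039 (SE 0.15). Transcripts of close relatives such as ENO1 and ENO2 can bind each other's probes. The sources used here hold no probe sequences, and this was not tested.

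**Figure D4:**
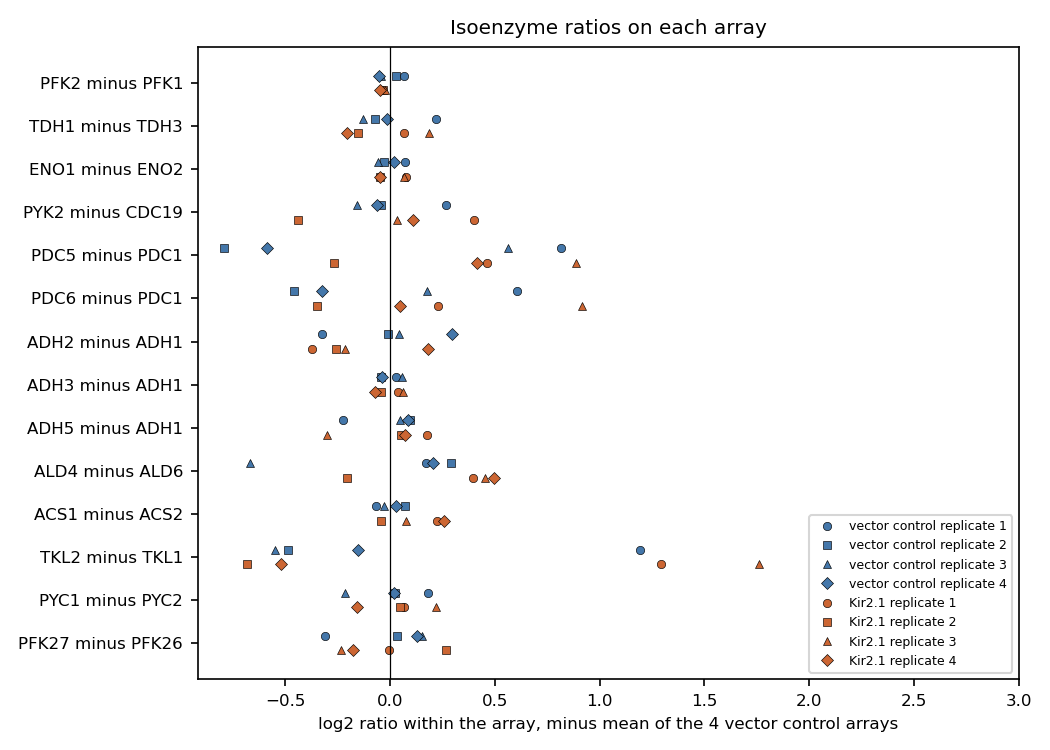
Each point is 1 array, and the horizontal axis is the log2 ratio of a gene to its isoenzyme within that array, minus the mean of the 4 vector control arrays. For PFK2 against PFK1 it is the ratio of subunit genes. Control (blue) and Kir2.1 (orange) points overlap in all 14 pairs, tightly for ENO1 against ENO2 and widely for PDC5 against PDC1 and TKL2 against TKL1.

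Some members showed the split of the arrays seen in the iron genes. The margin was small for PDC5 (3.83 in Kir2.1 replicate 1, 3.78 in Kir2.1 replicate 4) and PYK2 (0.36 in Kir2.1 replicate 3, 0.35 in Kir2.1 replicate 4). TDH1, PYK2, PDC5, PDC6, ZWF1, TKL2 and PCK1 were higher on the 3 arrays of high iron genes than on any other array (7 of 39 members, against 16.7% of all genes), and ADH2, RKI1, RPE1 and PYC2 were lower there (4 of 39, against 18.4%). These shares are close to or under those of all genes, so they are no result about the pathway. All 14 iron genes were higher on these 3 arrays, which had been singled out by the summed level of the same genes. The part of the iron genes in the member values was not tested. Without these 3 arrays the differences were 0.095 for TDH1, 0.11 for PYK2, 0.52 for PDC5, 0.23 for PDC6, 0.080 for ZWF1 and 0.089 for PCK1, each smaller than with all arrays. For PDC5 the change was small, from 0.54 with all arrays. The differences without these arrays were 0.071 for ADH2, -0.0010 for RKI1, 0.10 for RPE1 and 0.094 for PYC2, each higher than with all arrays. All these members had been picked for standing highest or lowest on Kir2.1 replicates 1 and 3 and vector control replicate 1. Leaving out more Kir2.1 than control arrays thus largely set the direction of these changes. Without the 3 arrays the median member difference was 0.17, 23 of 39 members had Kir2.1 values above all controls, against 17% of all genes, and 0 passed the test.

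PDC5 also moved with genes of thiamine synthesis and uptake, a list added after its values had been seen. Pyruvate decarboxylase needs thiamine pyrophosphate as its cofactor. Of 17 measured thiamine genes, 16 were highest in Kir2.1 replicate 3 and 15 lowest in vector control replicate 2, as PDC5 was. THI4 (YGR144W), which makes the thiazole ring of the vitamin, stood at 3.80, -0.70, 1.42 and 0.27 in the controls and 3.62, 0.92, 4.27 and 0.44 in the Kir2.1 arrays. THI20 (YOL055C), a kinase of the pyrimidine ring, stood at 3.26, 2.26, 2.77 and 2.44 in the controls and 3.13, 2.74, 3.50 and 2.75 in the Kir2.1 arrays. The summed level of the 17 genes was 6.38, 5.08, 5.67 and 5.32 in the controls and 6.25, 5.60, 6.69 and 5.60 in the Kir2.1 arrays. The match was loose in Kir2.1 replicate 4. There PDC5 (3.78) stood near its level in Kir2.1 replicate 1 (3.83), while the summed level was lower (5.60 against 6.25). In 14 of the 17 the 3 arrays of high iron genes stood above the other 5, as in PDC5, against 16.7% of all genes. For 14 of the 17, vector control replicate 3, which was not among the 3 arrays with high iron genes, stood above vector control replicates 2 and 4, as it did for PDC5, PDC6 and ALD6. The shares of all genes with this order, or with the highest and lowest arrays named above, were not computed. Those counts thus have no reference. In the controls the summed level thus ranged from 5.08 to 6.38 and in the Kir2.1 arrays from 5.60 to 6.69, and the ranges overlapped. None of the 17 passed between the groups, and their part in the PDC5 values was not tested.

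**Figure D5:**
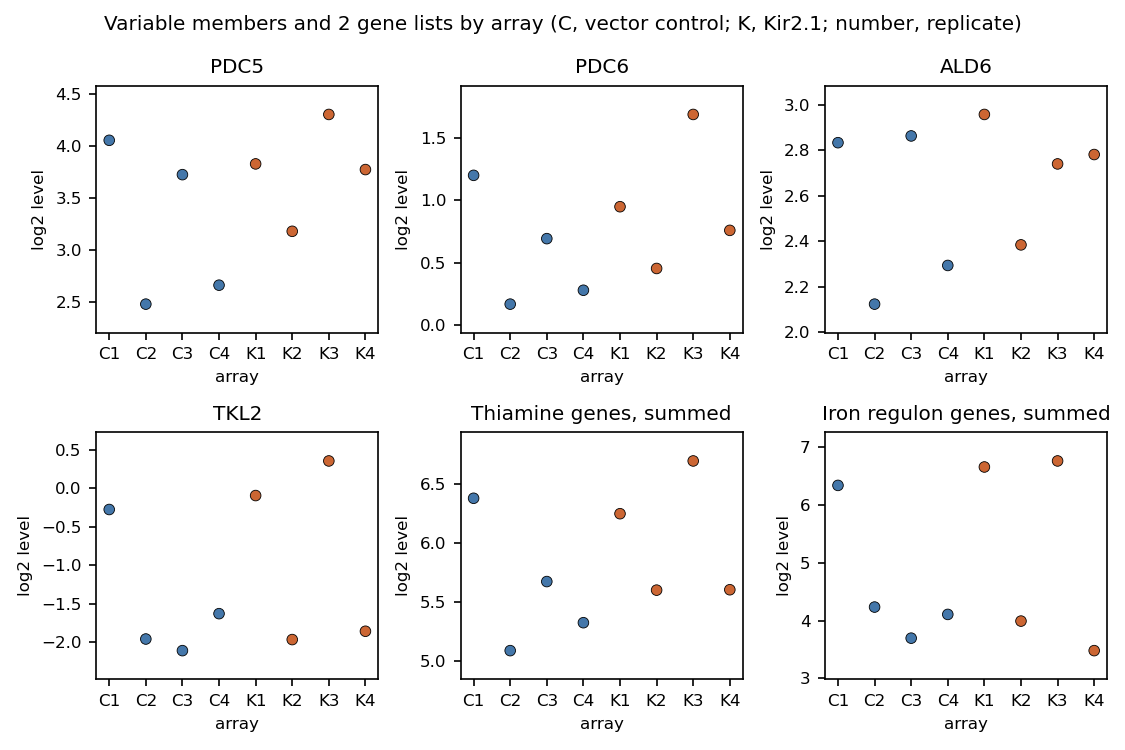
Log2 levels on each array (C, vector control in blue; K, Kir2.1 in orange; the number is the replicate) are shown for PDC5, PDC6, ALD6 and TKL2 and for the summed levels of 17 thiamine genes and 14 iron genes. C1, K1 and K3 are the 3 highest arrays for PDC5, PDC6, TKL2 and both gene lists; in PDC5 and the thiamine genes C3 also lies above C2 and C4, and in TKL2 and the iron genes the 3 arrays lie far above the other 5.

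Other genes of the same pathways were read from lists drawn up by name. Of 27 further enzyme genes, 25 were higher on average with Kir2.1 (92.6%, against 58.7% of all genes), with a median difference of 0.17, and 0 passed. At an unadjusted p under 0.05 there were 3, all higher (11.1%, against 6.37% of all genes). After quantile normalization 22 of the 27 had the higher mean with Kir2.1, where 2659 of all 5449 genes did. The median difference of the list was then 0.11, and 5 of the 27 lay in the brightest decile. PGM1 (YKL127W), a phosphoglucomutase, stood at 0.79, 0.90, 0.85 and 0.83 in the controls and 1.07, 0.95, 0.91 and 1.02 in the Kir2.1 arrays and was the 1 gene of this list whose groups did not overlap, a share of 3.7% against 5.05% of all genes (difference 0.15, SE 0.058, limma adjusted p = 0.568). EMI2 (YDR516C), a relative of glucokinase, stood at 1.82, 1.93, 1.87 and 2.06 in the controls and 2.54, 1.93, 2.15 and 2.32 in the Kir2.1 arrays (difference 0.31, SE 0.13). HXK1 (YFR053C), the hexokinase repressed by glucose, stood at 3.30, 3.19, 3.17 and 3.26 in the controls and 3.65, 3.18, 3.49 and 3.75 in the Kir2.1 arrays (difference 0.28, SE 0.12). In EMI2 and HXK1, Kir2.1 replicate 2 lay at the level of the controls and the other 3 Kir2.1 arrays above them. Of 14 regulator genes, 9 were higher on average, 0 passed and 0 had an unadjusted p under 0.05, with a median difference of 0.055. ADR1 (YDR216W), an activator of ethanol and acetate genes, differed by 0.31 (SE 0.16), RAP1 (YNL216W), an activator of glycolytic and ribosomal protein genes, by -0.081 (SE 0.061), and SNF1 (YDR477W), the kinase that relieves glucose repression, by -0.071 (SE 0.060).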

How the data were processed

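Total RNA of 8 cultures was measured on Affymetrix yeast arrays with biotin-labelled cRNA, per the labels' protocols. For 10715 probe sets the authors deposited a standardized score, centred on 0 and scaled to a unit standard deviation on every array; how the authors summarized probes and removed background is not given in the sources used here, and no value column was left unused. Scores lay between -0.47 and 9.22, the shape of a linear intensity, so the zero of each array was placed 0.005 standard deviations below its lowest score, log2 was taken, and each array was centred on its median gene. Before centring, the array medians lay 0.13 lower in the Kir2.1 group (-0.13), so all levels are relative to the median gene. The platform annotation, with symbols updated through the RefSeq table of assembly R64, gave 1 S. cerevisiae gene for 5498 probe sets, which left 5449 genes, each read from its brightest probe set; 1746 probe sets were for S. pombe, 1 had several genes and 3470 had no entry.

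The comparison of the groups used lmFit and eBayes of limma 3.58.1 (R 4.3.3), two-sided and with no covariate, over all genes, and calls were made at a Benjamini-Hochberg adjusted p under 0.05. Isoenzyme ratios were compared by exact permutation. The procedure was tested on simulated data with independent noise for each gene and added differences larger than that of any member. This does not show how often differences of the size seen here would be found. Precision is limited by the number of arrays, with a median SE of 0.091 for a difference and a median half-width of 0.21 for its 95% interval. The series describes its replicates as biological. The alternatives were other zeros, scalings, filters, array weights, a replicate block and left-out arrays. Members and gene lists were chosen with earlier results of these data known, and the thiamine list and the setting without the 3 arrays of high iron genes after the values were seen. By rule, all members are named, and of the other enzymes and regulators those with an unadjusted p under 0.05 or the 3 smallest p of the list. For single arrays, values are given for members of isoenzyme pairs and members whose groups do not overlap. THI4 and THI20 were chosen after their values were seen, as were single-array values of HXK2, ZWF1, SOL3, RKI1, RPE1, PGM1, EMI2 and HXK1.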

Additional observations from a re-analysis of the deposited data

Results flagged for a closer look

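In 7 of 78 sets of 4 arrays (39 members, each in 2 groups), the highest or lowest array was set apart from the other 3 further than Dixon's 95% critical value allows for 4 values. Chance flags about 1 in 20 such sets. ENO1 stood at 4.18 in vector control replicate 3, below the other controls at 4.31 to 4.34, and at 4.39 in Kir2.1 replicate 4, below the other Kir2.1 arrays at 4.50 to 4.51. TKL1 was also low in vector control replicate 3, at 3.67 against 3.76 in each other control. ADH3 was low in vector control replicate 1, at 2.78 against 2.95 to 2.96, and ZWF1 was high there, at 2.33 against 1.99 to 2.04. ALD4 was low in Kir2.1 replicate 2, at 1.49 against 2.50 to 2.66. SOL3 was high in Kir2.1 replicate 4, at 2.55 against 2.41 to 2.43.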

How the results depend on the processing

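The count of 0 called members held under other zeros of the scale (0.001 and 0.02), all scalings, the dim filter, the mean of probe sets, the unlogged scores, the replicate block and each single omission (0 to 0 calls), and the setting without the 3 arrays of high iron genes. It was 19 with array weights, in which Kir2.1 replicates 2 and 4 counted 0.231 and 0.267 and vector control replicate 1 counted 0.372, and 2 when Kir2.1 replicate 2 and vector control replicate 1 were both left out. The cause was not tested. The median member difference was 0.024 after quantile normalization and 0.047 without centring, 0.13 with centring on the 75th percentile, and 0.16 to 0.19 over the single omissions. The members with Kir2.1 values above all controls numbered 1 after quantile normalization, 1 without centring and 9 with centring on the 75th percentile (of all genes 97, 10 and 139), and 26 (of all genes 1243) without Kir2.1 replicate 2 and vector control replicate 1, where fewer arrays have to be separated, and 17 to 20 over the single omissions (of all genes 305 to 613). Isoenzyme pairs, not computed for array weights and the unlogged scores, gave 0 calls in each setting, which the smallest possible exact p largely fixed: with the replicate block (0.125) or with 2 or 3 arrays left out (0.1) no pair could pass. Separated were ACS1 against ACS2 after quantile normalization and, with ALD4 against ALD6, without Kir2.1 replicate 2, while 4 pairs were separated without Kir2.1 replicate 2 and vector control replicate 1, and TDH1 against TDH3 without the 3 arrays of high iron genes.

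Signs changed in members and pairs that were not called. After quantile normalization the differences were -0.014 for PFK2, -0.012 for TPI1, -0.0047 for GPM1, -0.012 for PDC1, -0.024 for ADH1, -0.074 for ACS2, -0.081 for RPE1 and -0.010 for PYC1, and those of TDH1 against TDH3 and of ADH2, ADH3 and ADH5 against ADH1 were 0.024, 0.015, 0.070 and 0.11. Without centring, PFK2, ACS2, RPE1, FBP1 (within the background on all arrays) and PYC1 were at -0.0075, -0.087, -0.12, -0.025 and -0.092, and with the 75th percentile ACS2, RPE1 and PYC1 were at -0.0018, -0.032 and -0.0062. With array weights ADH5, RPE1 and PYC1 were at -0.0021, -0.19 and -0.046. Without Kir2.1 replicate 2 and vector control replicate 1 they were at -0.049, -0.16 and -0.0041, with TDH1 against TDH3 at 0.088 and ADH3 against ADH1 at 0.017. Without the 3 arrays of high iron genes, ADH2, TKL2 and PYC2 were at 0.071, -0.013 and 0.094, ENO1 against ENO2 at -0.027, PYK2 against CDC19 at -0.078 and TKL2 against TKL1 at -0.21.

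Over the single omissions the differences ran from -0.17 to 0.12 for ADH2, -0.20 to 0.024 for RKI1, -0.077 to 0.083 for RPE1, -0.035 to 0.085 for PYC1 and -0.058 to 0.049 for PYC2. Among the pairs they ran from -0.098 to 0.045 for TDH1 against TDH3, -0.011 to 0.034 for ENO1 against ENO2, -0.10 to 0.18 for PYK2 against CDC19, -0.026 to 0.41 for PDC6 against PDC1, -0.026 to 0.017 for ADH3 against ADH1, -0.075 to 0.10 for ADH5 against ADH1, -0.029 to 0.11 for PYC1 against PYC2 and -0.14 to 0.026 for PFK27 against PFK26. Same-numbered arrays of the 2 groups deviated together for replicates 1, 2 and 4 (correlations 0.81, 0.69 and 0.39 over genes) but not for replicate 3 (-0.66), and only Kir2.1 replicate 1 correlated best with its own number, so the numbers were not taken as pairs. With the replicate block, 0 members passed (smallest limma adjusted p = 0.511) and the median member difference was 0.18. The intensity background limits FBP1 on all arrays and TKL2 on 4.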
